A study of Mus musculus with 10 samples.

Results

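The genes described here are the core of the G1 phase machinery in the mouse: the D-type cyclin genes Ccnd1, Ccnd2 and Ccnd3, their partner kinase genes Cdk4 and Cdk6, the E-type cyclin genes Ccne1 and Ccne2 with their kinase gene Cdk2, the pocket protein gene Rb1 and the transcription factor gene E2f1. They are 10 of 18194 genes measured in embryonic palate, and they were taken by name as every probe set that the array annotation assigns to exactly 1 of these symbols. That gave 29 of the 45101 probe sets, and all 29 were used without a filter on low values.

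In G1, D-type cyclins bind Cdk4 and Cdk6 and begin to phosphorylate the Rb protein, which otherwise holds E2F factors inactive. E2F factors then switch on genes for DNA synthesis, among them those of cyclin E and of E2f1 itself, and cyclin E with Cdk2 completes the phosphorylation of Rb as cells enter S phase. TGF-beta slows this step in many epithelial cells, whereas palate mesenchyme of the neural crest depends on the pathway for its growth.

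RNA came from the secondary palate of C57B6 embryos at E14.5, when the shelves fuse. The mutant group had 5 arrays, genotype Tgfbr2fl/fl;Wnt1-Cre, in which the Cre recombinase driven by Wnt1 sequences removes the TGF-beta type II receptor from neural crest derivatives, and the control group had 5 arrays, genotype Tgfbr2fl/fl, so by genotype label both groups carry the floxed alleles, although the control titles say wildtype. Sex is labelled as not determined, and no agent was given. The Y-linked gene Eif2s3y read 9.2, 9, 9.3, 9.1 and 5.1 in mutant arrays, against 9.1, 3.2, 3.3, 9 and 3.2 in control arrays. The groups were thus not balanced for it. Mutant replicate 5, at 5.1, lay between the low and the high level of the other arrays, and its sex was not inferred. Tissue outside the crest lineage, such as epithelium, vessels and muscle, keeps the receptor gene, and no label says that each array is a separate embryo, so p-values cover the spread between these samples, which may be technical. The deposited values are RMA values on the log2 scale in steps of 0.1, between 2.2 and 14.3, with array medians of 6.4 or 6.5.

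All 10 palate mesenchyme markers were measured, with mean log2 levels of 8.88 to 12.30, and 4 of them had a log2 fold change below 0. Only 1, Tbx22, was called, and it was higher in mutant arrays (log2 fold change 0.62, adjusted p = 0.0183), where 2.9% of all genes were higher. The largest change was that of Msx1, at -0.84, which was not called (adjusted p = 0.147). The Tgfbr2 probe set read 10.7, 10.7, 10.8, 10.7 and 10.8 in mutant arrays, against 10.5, 10.8, 10.7, 10.6 and 10.7 in control arrays (log2 fold change 0.08, adjusted p = 0.482), and no source used here places it relative to the deleted part, so it does not check the deletion. Control replicate 1 stood apart, at 80.4 on the first principal component of all probe sets (37.4% of the variance) where the other 9 arrays lay between -21.0 and 2.68. Over the 29 probe sets it was the highest control array 10 times and the lowest 9 times. Skeletal muscle markers moved with genotype: 10 of 14 were lower (71.4%, against 5.36% of all genes) and none higher. Their mean log2 level was 5.71 to 7.70 in mutant arrays against 7.58 to 9.04 in control arrays. Among the other markers, 2 of 11 epithelial ones were higher, where 2.9% of all genes were higher. None of the 6 endothelial, 6 macrophage, 5 erythroid or 4 nerve and glia markers measured was called. Of these lists without a call, at an unadjusted p under 0.05 in limma, 3 of the 5 erythroid markers were lower (list median -0.30) and 1 macrophage marker was higher.

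At the level of transcripts, the D-type cyclins, Cdk6 and Rb1 showed no called difference between genotypes on any probe set. Ccne1 and E2f1 were called lower in mutant palate by gene, and Cdk4 only on 1 of its 3 probe sets. When 1 array was left out, the probe set calls of Cdk4 1422440_at and Ccne1 1416492_at were kept in all 10 cases. That of E2f1 1431875_a_at was kept in 1 of them. By gene, with each gene represented by its brightest probe set, limma called 2 of the 10 genes lower (20%) and none higher at an adjusted p under 0.05, where 5.36% of all genes were lower and 2.9% higher. At an unadjusted p under 0.05, 5 of the 10 were lower and none higher, where 15.1% of all genes were lower and 10% higher. By probe set, 3 of 29 were called lower (10.3%, against 2.18% of all probe sets) and none higher (against 1.08%): 1 each for Ccne1, E2f1 and Cdk4. The median log2 fold change was -0.08 over the 10 genes and -0.06 over the 29 probe sets, where the median was 0.00 over all genes and over all probe sets. Scaling mattered for differences of this size. After centring each array on its median in the gene fit, limma called none of the 10. Of them, 5 had a negative log2 fold change, and their median was 0.00. That scaling moved the median of all genes by 0.08 and the split of all calls to 474 lower of 1757, against 975 lower of 1503 with the deposited scaling. Because the values come in steps of 0.1, array medians are about as coarse, and the part of rounding in this shift was not tested. After quantile normalization again, the median of all genes was 0.002 and 1 of the 10 genes was called. In the fit over all probe sets, median centring kept the 3 calls. The log2 fold changes were then -0.36 for Cdk4 1422440_at, -0.52 for Ccne1 1416492_at and -0.40 for E2f1 1431875_a_at. A bulk measurement cannot tell fewer cells in G1 or S phase from less RNA per cell.

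**Figure D1:**
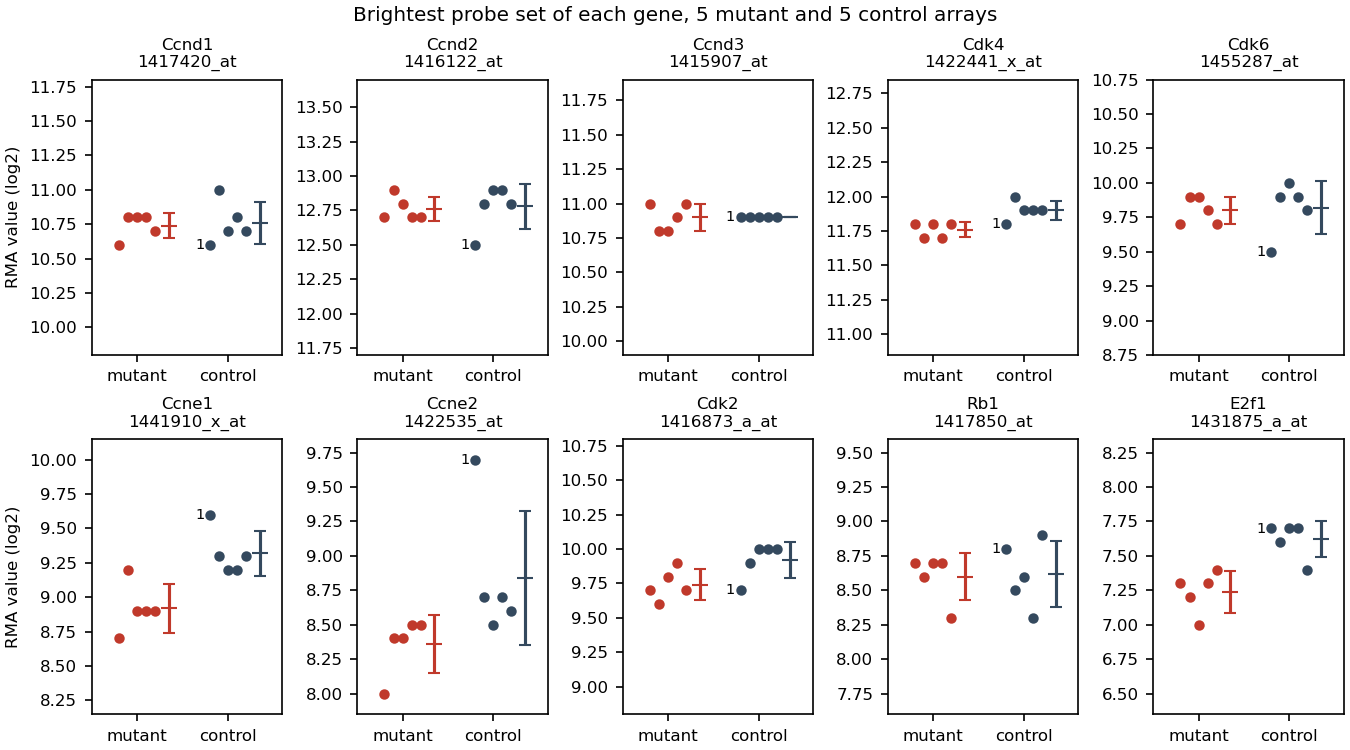
RMA value (log2, vertical axis, each panel spanning 2 units) of the brightest probe set of each gene, with 1 point per array in mutant (left) and control (right), and a bar at the mean with the SD (n = 5 each). Control replicate 1 carries the digit 1. Ccne1 and E2f1 sit lower in mutant arrays, touching controls at 9.2 and 7.4, while the D-type cyclins overlap throughout.

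The D-type cyclins are the entry point of the pathway, and their genes respond to growth factors. Ccnd1, which encodes cyclin D1, read 10.6, 10.8, 10.8, 10.8 and 10.7 in mutant arrays, against 10.6, 11, 10.7, 10.8 and 10.7 in control arrays on its brightest probe set. The ranges overlap almost fully, and the log2 fold change was -0.02 (95% confidence interval -0.19 to 0.15, adjusted p = 0.895 over genes). Its second probe set gave 0.00 (-0.20 to 0.20). The third, 1417419_at, read 7.6, 7.8, 7.6, 8.2 and 8.2 in mutant arrays, against 9.4, 8.6, 8.2, 8.1 and 7.7 in control arrays. Control replicate 1 was the highest of these, and the difference of -0.52 (SE 0.27, adjusted p = 0.319 over probe sets) was -0.27 without it.

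Ccnd2, which encodes cyclin D2, had 7 probe sets. The brightest read 12.7, 12.9, 12.8, 12.7 and 12.7 in mutant arrays, against 12.5, 12.8, 12.9, 12.9 and 12.8 in control arrays. The difference was -0.02 (-0.20 to 0.16, adjusted p = 0.898). Across the 7 probe sets the log2 fold changes ran from -0.26 to 0.04, and the adjusted p was 0.541 or more. The most negative, on 1416123_at, came with a control replicate 1 at 10.3 where the other controls read 8.9 to 9.4, and it was -0.02 without that array. On the brighter Ccnd2 probe sets 1416122_at, 1455956_x_at and 1430127_a_at the same array was instead the lowest control.

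Ccnd3, which encodes cyclin D3, read 11, 10.8, 10.8, 10.9 and 11 in mutant arrays, against 10.9 in every control array. Its log2 fold change was 0.00 (-0.13 to 0.13), and its dimmer probe sets gave 0.10 and 0.04. The intervals on the brightest probe sets span 0.871 to 1.12 times the control level for Ccnd2 and 0.915 to 1.09 times for Ccnd3. Within arrays, no difference between the changes of the 3 genes was detected. The change of Ccnd1 minus that of Ccnd2 was 0.00 (-0.19 to 0.19), that of Ccnd1 minus Ccnd3 was -0.02 (-0.26 to 0.22), and that of Ccnd2 minus Ccnd3 was -0.02 (-0.27 to 0.23), each with an exact two-sided permutation p of 1 (adjusted p = 1 over 5 family pairs, where 0.00794 is the smallest p that 5 against 5 arrays allow).

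Cdk4 encodes the main kinase partner of cyclin D in proliferating cells, and its 3 probe sets all had negative log2 fold changes of unequal size. On 1422440_at the values were 11, 11, 10.9, 10.9 and 10.9 in mutant arrays, against 11.4, 11.3, 11.3, 11.2 and 11.2 in control arrays. Every mutant array lay below every control array, which held for 2 of the 29 probe sets (6.9%) and for 3.41% of all probe sets. The mean was 10.94 ± 0.05 in mutant and 11.28 ± 0.08 in control arrays (SD, n = 5 each), a fall to 79.0% of the control level (log2 fold change -0.34, SE 0.06, adjusted p = 0.0159), and limma kept the call without any 1 of the 10 arrays (-0.36 to -0.31). The other probe sets were not called: 1422441_x_at, the brightest, gave -0.14 (-0.27 to -0.01, adjusted p = 0.210), and 1422439_a_at gave -0.16 (-0.29 to -0.03, adjusted p = 0.157). In Affymetrix naming, the ending _x_at marks probes that may also match other transcripts, and _a_at marks probes shared by variants of the same gene. The gene was thus not called on its brightest probe set (adjusted p = 0.146 over genes), but was called on the mean of its 3 probe sets (-0.21, adjusted p = 0.0180).

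The promoter of Cdk4 is shown because Myc proteins, which bind the E-box CACGTG with Max, are known regulators of this gene and Mycn is among the genes described further on. The window runs from 250 bases before to 50 after the RefSeq start (build GRCm38.p6, written 5′ to 3′ on the gene's strand), and capitals mark each CACGTG, a sequence that is its own reverse complement.
Cdk4 promoter (chr10:127063285-127063584, plus strand): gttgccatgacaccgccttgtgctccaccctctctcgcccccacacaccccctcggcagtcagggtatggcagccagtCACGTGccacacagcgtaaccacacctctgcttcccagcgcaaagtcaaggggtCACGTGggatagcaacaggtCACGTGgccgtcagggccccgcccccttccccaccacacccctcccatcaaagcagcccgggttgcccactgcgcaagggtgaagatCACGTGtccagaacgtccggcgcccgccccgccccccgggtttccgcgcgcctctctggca
It holds 4 copies, which begin 172, 118, 98 and 11 bases before the start. Of all 32851 windows of this length, 7.15% hold at least 1 copy. Of the 10 genes, Cdk4, Cdk6, Ccnd3, Ccne1, Cdk2 and E2f1 had such a window in the table, and Cdk6 was the other of these with a CACGTG. The windows of Cdk6 and E2f1, and 1 of the 2 of Ccnd3, are placed at a start inside the gene's span rather than at its outermost start, so they may not be the main promoters. A match describes the letters only.

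Cdk6, the second kinase partner of D-type cyclins, read 9.7, 9.9, 9.9, 9.8 and 9.7 in mutant arrays, against 9.5, 9.9, 10, 9.9 and 9.8 in control arrays on its brightest probe set. The groups overlap, at a log2 fold change of -0.02 (-0.22 to 0.18), and the dimmer ones gave 0.00 and -0.06. The change of Cdk4 minus that of Cdk6 on the brightest probe sets was -0.12 (-0.33 to 0.09, exact two-sided permutation p = 0.317, adjusted p = 1 over the 5 pairs). It was -0.19 on the mean of all probe sets of each gene (exact permutation, adjusted p = 0.0397), so whether these kinase genes changed unequally depended on the probe sets.

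**Figure D2:**
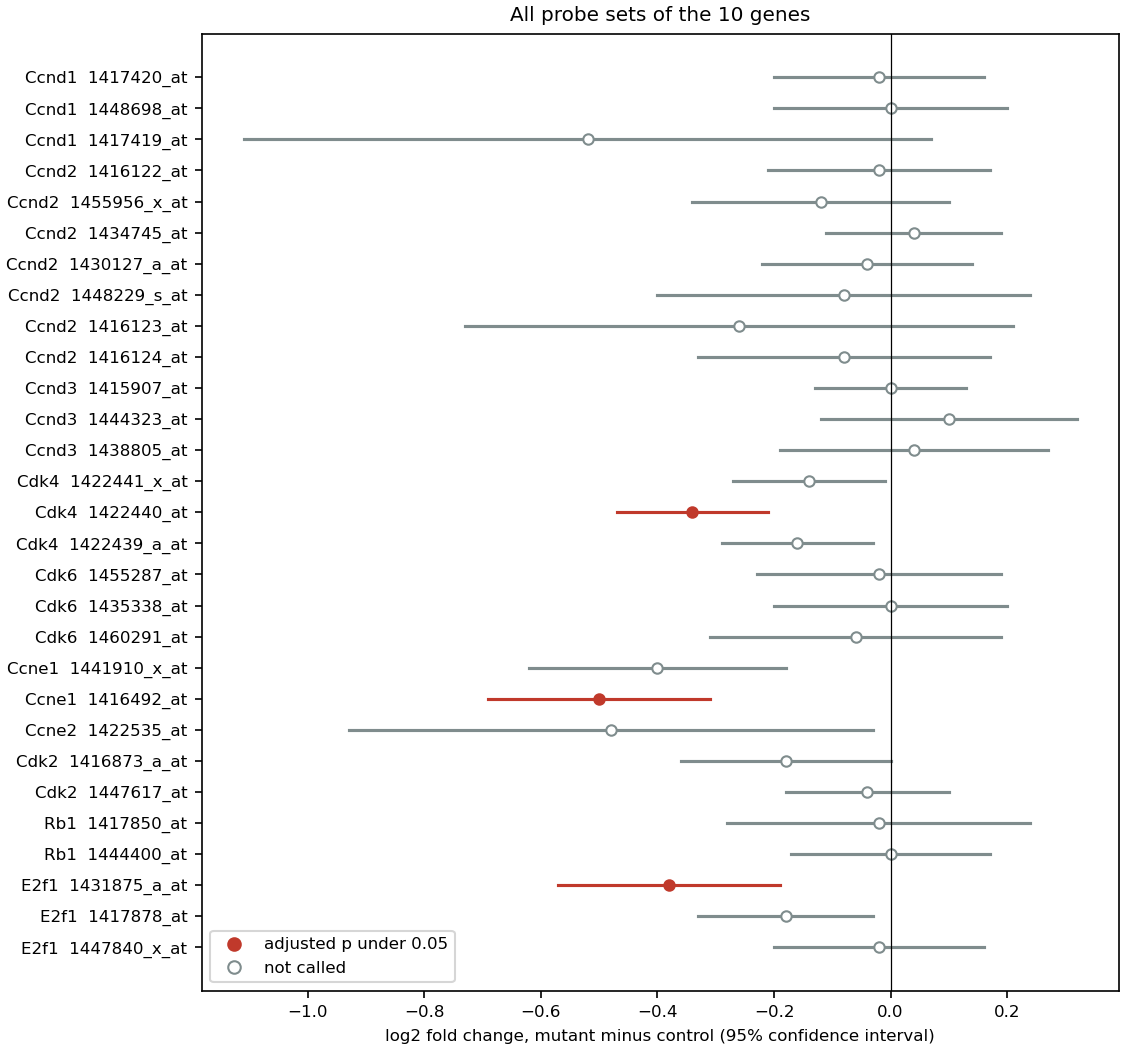
Log2 fold change of mutant minus control (horizontal axis) with its 95% confidence interval for the 29 probe sets, ordered by gene and then by brightness. Filled points are those with an adjusted p under 0.05 over all probe sets: Cdk4 1422440_at at -0.34, Ccne1 1416492_at at -0.50 and E2f1 1431875_a_at at -0.38.

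Ccne1 encodes cyclin E1, the activator of Cdk2 at the entry to S phase, and it was lower in mutant palate on both probe sets. On 1416492_at the values were 8.0, 8.2, 7.9, 8.0 and 8.1 in mutant arrays, against 8.8, 8.5, 8.4, 8.5 and 8.5 in control arrays. All mutant arrays lay below all control arrays. The mean was 8.04 ± 0.11 in mutant and 8.54 ± 0.15 in control arrays (SD, n = 5 each), 29.3% lower (log2 fold change -0.50, SE 0.09, adjusted p = 0.0135 over probe sets), and the call held without each array in turn (-0.54 to -0.44).

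The brighter Ccne1 probe set, 1441910_x_at, read 8.7, 9.2, 8.9, 8.9 and 8.9 in mutant arrays, against 9.6, 9.3, 9.2, 9.2 and 9.3 in control arrays. The groups met at 9.2, in mutant replicate 2 and control replicates 3 and 4. The log2 fold change was -0.40 (SE 0.10, -0.62 to -0.18), with an adjusted p of 0.0325 over genes and 0.0589 over probe sets. The direction was the same in each of the 20 alternative settings of the gene test (-0.50 to -0.32), but the call was kept in only 9 of them, in 1 case just under the threshold (-0.45 with Eif2s3y as a covariate, adjusted p = 0.05 as rounded). Without 7 of the arrays in turn, mutant replicates 1, 3, 4 and 5 and control replicates 2, 3 and 5, the adjusted p was 0.0511 to 0.0750, and after array median centring the value was -0.32 (adjusted p = 0.0577).

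Ccne2, which encodes cyclin E2, had 1 probe set, with 8.0, 8.4, 8.4, 8.5 and 8.5 in mutant arrays, against 9.7, 8.7, 8.5, 8.7 and 8.6 in control arrays. Control replicate 1 lay 1.0 above the next control, and mutant replicate 1 lay 0.4 below the next mutant. The log2 fold change of -0.48 (SE 0.20, -0.92 to -0.04) was not called (adjusted p = 0.161 over genes), and without control replicate 1 it was -0.27 (adjusted p = 0.122). Ccne1 and Ccne2 did not differ detectably in their change within arrays (0.08, interval -0.31 to 0.47, exact two-sided permutation p = 0.810, adjusted p = 1 over 5 pairs).

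Cdk2, the kinase bound by cyclin E and later by cyclin A, read 9.7, 9.6, 9.8, 9.9 and 9.7 in mutant arrays, against 9.7, 9.9, 10, 10 and 10 in control arrays. Control replicate 1 was the lowest control and lay within the mutant range. The log2 fold change was -0.18 (SE 0.08, -0.35 to -0.01, adjusted p = 0.177 over genes), and without that array it was -0.23 with a call (adjusted p = 0.0475). The other Cdk2 probe set read 2.7 to 2.9 in both groups, near the low end of the arrays, and gives no measure of a change.

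The promoters of Ccne1 and Cdk2 are shown because both genes lie downstream of E2F in this pathway. Windows and build are as for Cdk4. Capitals mark an E2F motif, searched on both strands as TTTCCCGC, TTTGGCGC, TTTCGCGC or TTTGCCGC.
Ccne1 promoter (chr7:38107441-38107740, minus strand): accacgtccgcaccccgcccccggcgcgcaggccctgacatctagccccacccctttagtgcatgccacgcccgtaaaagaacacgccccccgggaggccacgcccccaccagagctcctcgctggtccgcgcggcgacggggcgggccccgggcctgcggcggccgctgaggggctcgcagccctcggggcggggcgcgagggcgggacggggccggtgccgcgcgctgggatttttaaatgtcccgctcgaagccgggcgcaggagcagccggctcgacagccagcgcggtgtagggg
Cdk2 promoter (chr10:128705002-128705301, minus strand): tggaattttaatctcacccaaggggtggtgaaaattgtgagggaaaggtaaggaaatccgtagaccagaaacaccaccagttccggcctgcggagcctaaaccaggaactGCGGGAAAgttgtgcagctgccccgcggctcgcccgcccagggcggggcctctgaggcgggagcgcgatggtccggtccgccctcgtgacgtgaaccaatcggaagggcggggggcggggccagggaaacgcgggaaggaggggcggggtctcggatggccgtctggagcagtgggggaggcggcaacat
The Cdk2 window holds 1 match, on the reverse strand, 140 bases before the start, and the Ccne1 window holds none of these letters. Of all 32851 windows, 2.26% hold a match, and of the 4 genes with a window at the outermost start (Cdk4, Ccnd3, Ccne1 and Cdk2), only that of Cdk2 did. The E2f1 and Cdk6 windows also held none, but lie at inner starts, and the main promoters of these genes were not analysed here. Among the E2F target genes described further on, 12 of 28 windows (42.9%, for 24 genes) hold one.

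Rb1 encodes the pocket protein that restrains E2F until it is phosphorylated, a step that arrays of RNA do not see. It read 8.7, 8.6, 8.7, 8.7 and 8.3 in mutant arrays, against 8.8, 8.5, 8.6, 8.3 and 8.9 in control arrays. These ranges overlap, with a log2 fold change of -0.02 (-0.28 to 0.24, adjusted p = 0.923 over genes). Its other probe set read 3.2 to 3.6, near the low end of the arrays.

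E2f1, the transcription factor released from Rb, was lower in mutant palate on its brightest probe set, 1431875_a_at. The values were 7.3, 7.2, 7.0, 7.3 and 7.4 in mutant arrays, against 7.7, 7.6, 7.7, 7.7 and 7.4 in control arrays. The groups met at 7.4, where mutant replicate 5 equalled control replicate 5, and every other mutant array lay below every other control. The mean was 7.24 ± 0.15 in mutant and 7.62 ± 0.13 in control arrays (SD, n = 5 each), 23.2% lower (log2 fold change -0.38, SE 0.09), with an adjusted p of 0.0232 over genes and 0.0430 over probe sets.

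The second E2f1 probe set, 1417878_at, read 7.0, 7.1, 6.8, 7.1 and 7.0 in mutant arrays, against 7.2, 7.2, 7.2, 7.1 and 7.2 in control arrays. Its log2 fold change of -0.18 (-0.33 to -0.03) was not called (adjusted p = 0.170 over probe sets), and the third, 1447840_x_at, at 5.0 to 5.3 in both groups, gave -0.02 (-0.20 to 0.16). On the mean of the 3 the difference was -0.19 and was not called (adjusted p = 0.0760 over genes). The gene call was also lost without mutant replicate 2, mutant replicate 3 or control replicate 3 (adjusted p = 0.0535, 0.0509 and 0.0579), and with the Y-linked gene Eif2s3y as a covariate (-0.39, adjusted p = 0.0521) or after array median centring (-0.30, adjusted p = 0.0577). The RefSeq gene table gives the Wnt1-Cre transgene Tg(Wnt1-cre)2Sor as a synonym of E2f1. No label says which Wnt1-Cre line these embryos carried, so a line effect on E2f1 and the loss of Tgfbr2 cannot be told apart here. The muscle markers of mutant replicate 4 lay within the control range, at a median deviation of 0.55. With their median as a covariate the log2 fold changes were -0.50 for Ccne1 and -0.38 for E2f1, neither called (adjusted p = 0.288 and 0.340), and that of Cdk4 1422440_at was -0.40 (adjusted p = 0.325). With the same covariate Cdk2 was at -0.02, against -0.18 without it, and E2f1 1417878_at at -0.06, against -0.18 without it, none of these values being called. In the gene fit with that covariate 1 of 18194 genes was called, and the part of muscle content in these results was not tested further.

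**Figure D3:**
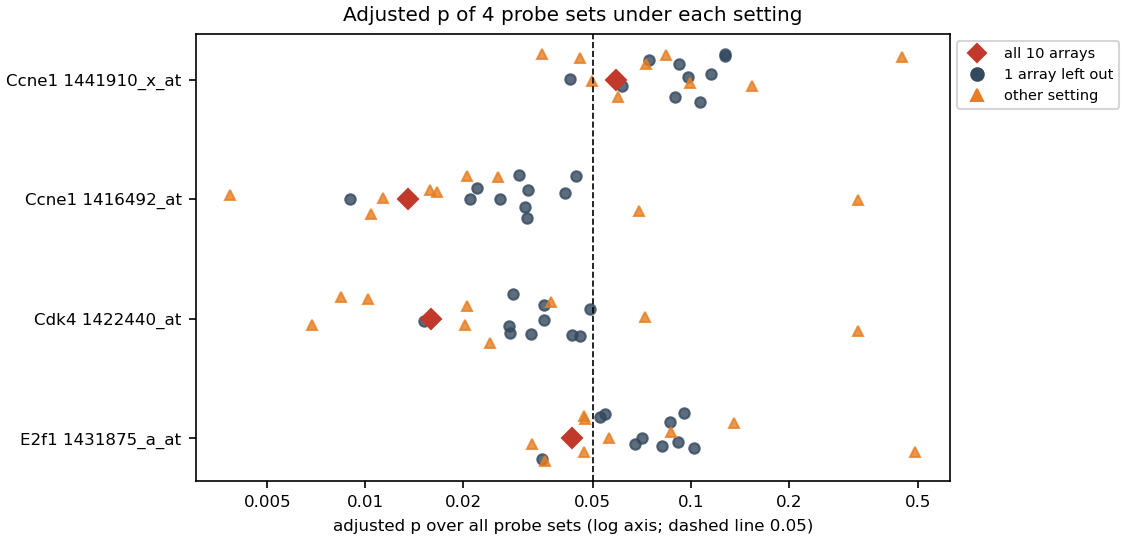
Adjusted p over all probe sets (horizontal log axis, dashed line at 0.05) for the 3 called probe sets and the brighter Ccne1 probe set, with all 10 arrays (diamond), with 1 array left out (circles) and under other settings (triangles). Cdk4 1422440_at and Ccne1 1416492_at stay left of 0.05 without each array, while E2f1 1431875_a_at lies at 0.0430 with all arrays and right of the line without most single arrays.

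By the distance between standardised profiles over the 10 arrays, the genes most like Ccne1 were Il33, Fer and Urod (root mean square distance 0.191, 0.235 and 0.244, against a median of 1.28 over 9606 genes that span at least 0.5). Il33, an alarmin cytokine gene, read 6.2, 7.0, 6.6, 6.6 and 6.6 in mutant arrays, against 8.0, 7.5, 7.3, 7.0 and 7.5 in control arrays (log2 fold change -0.86). Those most like E2f1 were Aaas, Plaat1 and Stac (0.307, 0.340 and 0.346), whose log2 fold changes were -0.34, -0.36 and -0.36. Plaat1 read only 4.6 to 5.4. All of these genes were picked by closeness to a gene called lower, so their direction follows from the choice. Control replicate 1 was the highest control for Ccne1 and for Il33, Fer and Urod.

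Of 28 measured E2F target genes of DNA replication, 25 were lower in mutant palate (89.3%, against 5.36% of all genes) and none was higher. The log2 fold change was below 0 for each of the 28, where it was below 0 for 8850 of all 18194 genes. The median was -0.39, where all genes had 0.00. For 25 of the 28 every mutant array lay below every control array, as for 4.93% of all genes. Tk1, which encodes thymidine kinase, averaged 8.56 ± 0.13 in mutant and 9.24 ± 0.05 in control arrays (log2 fold change -0.68, adjusted p = 0.000806). Mcm5, a subunit of the replicative helicase, averaged 10.92 ± 0.04 in mutant and 11.36 ± 0.05 in control arrays (-0.44, adjusted p = 0.00119), and Cdc45, a further component of the active helicase, averaged 7.18 ± 0.16 in mutant and 7.80 ± 0.07 in control arrays (-0.62, adjusted p = 0.00165; -0.24 on the mean of its probe sets). The 3 not called were Mcm6, Orc1 and Tyms, with log2 fold changes of -0.20, -0.12 and -0.06. The count was 25 without control replicate 1, and 19 to 25 without any 1 array. With array median centring it was 19, with 27 of 28 below 0. The count was 18 with the replicate numbers as a block. It was 0 with the muscle median as a covariate, where 1 of all 18194 genes was called. Like the other lists, this one was chosen with earlier results of these data known.

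All 9 measured genes in the list of cyclins and kinases of S phase and mitosis, which also holds Cdc25 phosphatase genes, were lower. That was 100%, against 5.36% of all genes, with a median log2 fold change of -0.54. Ccna2, which encodes cyclin A2, the later partner of Cdk2, read 10.3, 10.4, 10.4, 10.4 and 10.5 in mutant arrays, against 11, 10.9, 10.9, 11.1 and 10.8 in control arrays (-0.54, adjusted p = 0.00149). Ccnb2, encoding cyclin B2, fell by the same 0.54, and Cdc25b, encoding a phosphatase that activates mitotic kinase complexes, fell by 0.48 (adjusted p = 0.00229). None of 16 other cyclins and cyclin-dependent kinases was called at an adjusted p under 0.05, with a median of -0.04, and 3 of them had an unadjusted p under 0.05 (2 lower and 1 higher). The smallest p among these 16 was that of Cdk5, at -0.14 (adjusted p = 0.155).

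**Figure D4:**
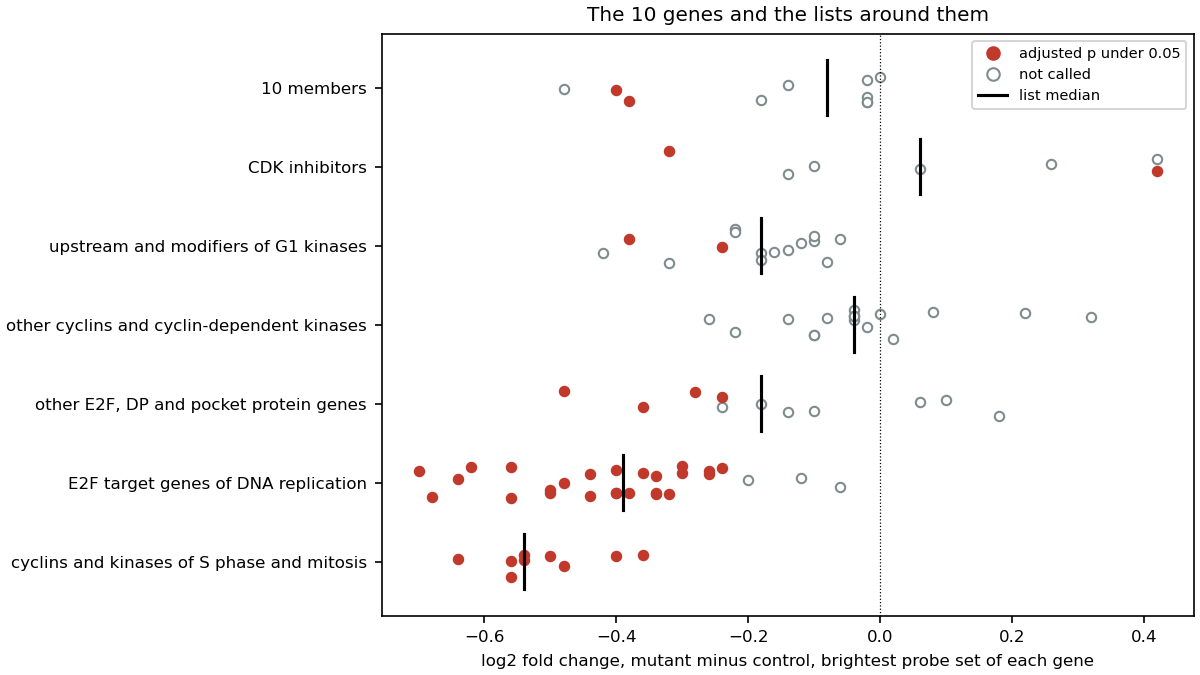
Log2 fold change of mutant minus control (horizontal axis) for each gene of the 10 and of 6 lists around them, on the brightest probe set of each gene. Filled points have an adjusted p under 0.05 over all genes and the bar is the list median: -0.08 for the 10 genes, -0.39 for E2F targets and -0.54 for cyclins and kinases of S phase and mitosis. The last list also holds Cdc25 phosphatase genes.

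Among 11 other E2F, DP and pocket protein genes, 4 were lower (36.4%, against 5.36% of all genes) and 7 not called, with a median of -0.18. Rbl1, which encodes the pocket protein p107, read 8.9, 8.8, 8.9, 8.9 and 8.9 in mutant arrays, against 9.2, 9.2, 9.3, 9.3 and 9.2 in control arrays (log2 fold change -0.36, SE 0.05, adjusted p = 0.00286). E2f8, a repressor of the family that acts in S phase, read 8.0 to 8.1 in mutant arrays and 8.4 to 8.7 in control arrays (-0.48, adjusted p = 0.00430). E2f2 fell by 0.28 and E2f6 by 0.24 (adjusted p = 0.0414 and 0.0477). The calls of Rbl1 and E2f8 held without each of the 10 arrays, that of E2f2 was lost without any 1 of them, and that of E2f6 without 9 of them.

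Of 7 CDK inhibitor genes, 1 rose (where 2.9% of all genes were higher), 1 fell (14.3%, against 5.36% of all genes) and 5 were not called. Cdkn1a, which encodes p21, an inhibitor induced by TGF-beta and p53, was 0.42 higher (10.54 ± 0.09 in mutant and 10.12 ± 0.24 in control arrays, adjusted p = 0.0317). Cdkn2c, which encodes p18, an inhibitor of Cdk4 and Cdk6, fell by 0.32 (7.70 ± 0.14 in mutant and 8.02 ± 0.11 in control arrays, adjusted p = 0.0325). Neither call held when certain single arrays were removed, 6 of the 10 in each case.

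Of 15 upstream regulators and modifiers of the G1 kinases, 2 were lower (13.3%, against 5.36% of all genes) and 13 not called. The log2 fold change was below 0 for each of the 15 (median -0.18), where 8850 of all 18194 genes were below 0. After array median centring it was below 0 for 13 of the 15, with none called. Mycn, which encodes the Myc family protein N-Myc, read 7.8, 7.7, 7.9, 7.7 and 7.8 in mutant arrays, against 8.4, 8.0, 8.1, 8.3 and 8.0 in control arrays (-0.38, SE 0.09, adjusted p = 0.0232), but on the mean of its probe sets the difference was -0.13 and was not called (adjusted p = 0.254). Fbxw7, which encodes the ubiquitin ligase subunit that marks cyclin E for degradation, fell by 0.24 (adjusted p = 0.0396), a call lost without 7 of the 10 arrays. Beside these lists the muscle markers moved as given above.

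**Figure D5:**
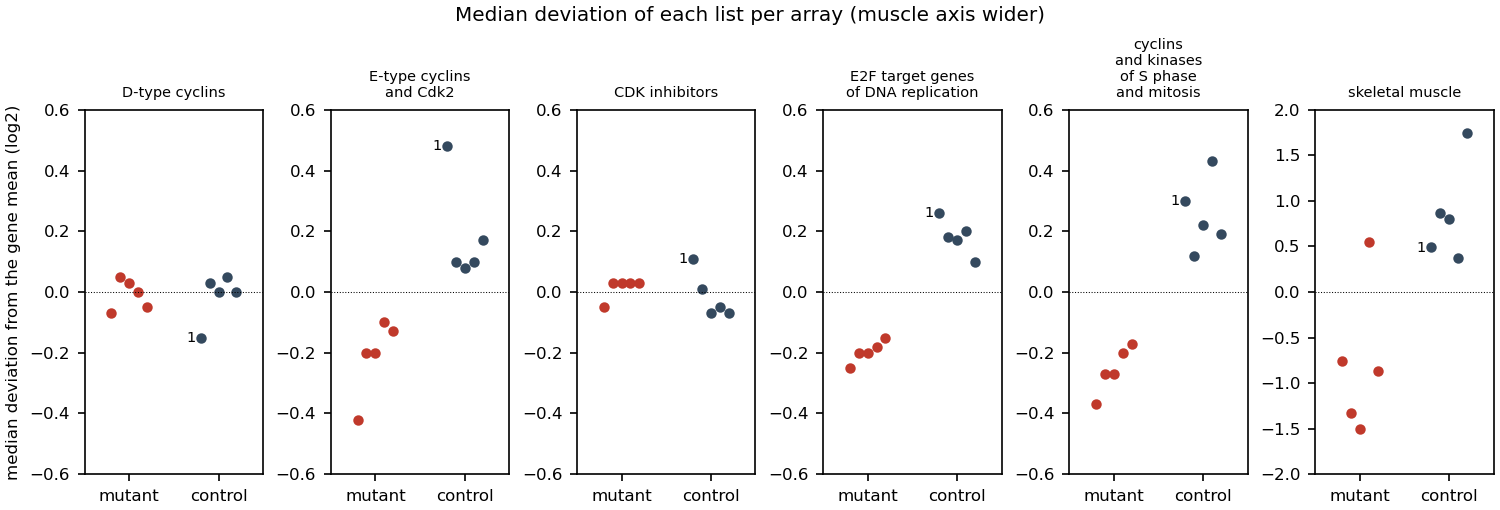
Median deviation of each list from the gene means (log2, vertical axis), 1 point per array, in mutant (left) and control (right); control replicate 1 carries the digit 1 and the muscle panel has a wider axis. E2F targets lay at -0.25 to -0.15 in mutant and 0.10 to 0.26 in control arrays, D-type cyclins at -0.07 to 0.05 in mutant and -0.15 to 0.05 in control arrays, and muscle markers at -1.50 to 0.55 in mutant and 0.37 to 1.75 in control arrays.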

How the data were processed

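Total RNA of palate was hybridised to an Affymetrix mouse array, 1 array per sample. The deposited values are log2 values that the authors made with RMA, per the submitters' processing notes; they carry 1 decimal, and no source used here gives the software, filters or batches. Of 45101 probe sets, 34958 carried 1 gene symbol, 932 several and 9211 none, and 34754 of the first were matched to RefSeq (GRCm38.p6) by Entrez ID for current symbols. For each of 18194 genes the brightest probe set over all arrays was taken. Differences were tested with limma 3.58.1 in R 4.3.3 (lmFit and eBayes, two-sided, no filter or covariate), adjusted by Benjamini-Hochberg over all genes or over all probe sets. A result was called at an adjusted p under 0.05. Errors are the SD of 5 arrays or the SE of the fit. The number of arrays limits the precision. Family members were compared by an exact permutation test of within-array differences, with t intervals, in 5 pairs (Python 3.11.15, scipy 1.17.1). The code was tested on simulated data.

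The genes and lists were chosen with earlier results of these data known. Genes named are the 10 members, up to 3 called genes with the smallest p from each list (1 where none was called), the 3 nearest profiles of each called member, and Tgfbr2. E2f6, Mcm6, Orc1, Tyms, Tbx22, Msx1 and Eif2s3y were chosen after their values were seen. Of the list genes, 6 had no probe set with that 1 symbol and were not analysed here.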

Additional observations from a re-analysis of the deposited data

Results flagged for a closer look

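Over the 29 probe sets, 58 groups of 5 arrays were examined for a value far from the other 4, which chance gives in about 1 of 20 groups. There were 10 such values on 9 probe sets, and 6 of them were in control replicate 1. Probe sets of the same gene measure the same arrays, so the groups are not independent and the count cannot be set against that rate. That array was high for Ccne1 (9.6 on 1441910_x_at, where the next control read 9.3, and 8.8 on 1416492_at, next 8.5) and for Ccne2 (9.7, next 8.7), and low for Ccnd2 (12.5 on 1416122_at, next 12.8, 12.1 on 1455956_x_at, next 12.4, and 11.9 on 1430127_a_at, next 12.2). The other 4 values were Cdk6 at 8.7 on 1435338_at in mutant replicate 4, Ccne2 at 8.0 in mutant replicate 1, Rb1 at 8.3 in mutant replicate 5, and E2f1 at 7.1 on 1417878_at in control replicate 4, where the other controls all read 7.2. With values in steps of 0.1, a gap of 1 step can meet this limit. Without control replicate 1 the log2 fold changes were -0.33 and -0.44 on the 2 Ccne1 probe sets, -0.27 for Ccne2 and -0.09, -0.19 and -0.11 on the 3 Ccnd2 probe sets.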

How the results depend on the processing

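None of the 10 genes was called higher in any of the 20 alternatives of the gene test, and no called gene or probe set among them changed direction. The count of called genes, 2 in the planned test, was 1 after quantile normalization again and with Eif2s3y as a covariate, and 0 with array median centring, with the replicate block and with the muscle median as a covariate. It was 0 to 3 when 1 array was left out: 0 without mutant replicate 3 or control replicate 3, and 3 without control replicate 1. On the mean of all probe sets it was again 2, but these were Ccne1 and Cdk4. The count of called probe sets, 3, was 0 with the replicate block and with the muscle median, and 2 to 4 otherwise (3 with array median centring). E2F targets called lower numbered 0 with the muscle median and 18 to 26 otherwise. Deviations of arrays with the same replicate number correlated between -0.0994 and 0.105, which shows no pairing of the samples but cannot exclude one. With the replicate numbers as a block 532 genes were called in place of 1503. Array median centring, which moved the all-gene median by 0.08, called 474 genes lower of 1757, in place of 975 of 1503. On the mean of all probe sets, the change of Ccnd1 differed from that of Ccnd2 by -0.10 and from that of Ccnd3 by -0.23 (not called), and that of Cdk4 from that of Cdk6 by -0.19, which was called. The causes were not tested. Steps of 0.1 and 5 arrays per group limit differences of this size.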
